A study of Mus musculus with 2 samples.

Results

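Polycomb repressive complex 1 (PRC1) is a histone ubiquitin ligase that keeps developmental genes silent. The mRNAs of 9 of its subunits were followed in a pair of arrested stages of mouse B cell development. The 9 genes were taken by symbol, namely *Cbx2*, *Cbx6*, *Cbx7*, *Cbx8*, *Bmi1*, *Pcgf2*, *Ring1*, *Rnf2* and *Phc1*, out of 20250 genes with a protein-coding RefSeq transcript. They held 13 of the 26968 protein-coding RefSeq transcript rows. The rule itself used no measured value, although the members were chosen with earlier results of these data known.

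Total RNA was sequenced from 1 library of *Ebf1* -/- pre-pro-B cells and 1 library of *Rag2* -/- pro-B cells, both on a C57BL/6 background. *Ebf1* encodes a transcription factor needed to enter the B lineage, and cells without it stop as pre-pro-B cells. *Rag2* encodes a subunit of the recombinase that joins antigen receptor gene segments, and cells without it stop as pro-B cells. The pre-pro-B cells came from female fetal liver and the pro-B cells from adult male bone marrow. Both were grown on OP-9 cells, a mouse bone marrow stromal line, with 5 ng/mL Il-7, and the pre-pro-B cells also received 10 ng/mL Scf and 10 ng/mL Flt3l. Developmental stage therefore cannot be told apart from genotype, sex, age, tissue of origin or cytokines. With 1 library per cell type no difference has a replicate check, and no p-value is given.

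The level of a transcript is given as FPKM, the number of sequenced fragments scaled to transcript length and to library depth, so that levels may be compared between genes per length. Each FPKM is followed, where it matters, by the 95% confidence interval that Cuffdiff, the program used by the authors, attached to it. That interval comes from the program's model with 1 library per cell type, so it holds no measured spread between cultures. Libraries were read to a depth of about 90 M single-end reads of 97 bases, from RNA with an integrity number of 9.9 in both. Genes were compared as the log2 ratio of pro-B over pre-pro-B after adding 1 to the summed FPKM of each gene, and a gene was called higher or lower when the ratio of these sums reached 2-fold. Coordinates of the members are those of the gene in GENCODE vM1 on mm9, which can reach beyond the RefSeq transcript named beside them.

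PRC1 assembles around a Ring-type ubiquitin ligase, Rnf2 (Ring1B) or Ring1 (Ring1A), which places a single ubiquitin on histone H2A. The ligase is paired with a Pcgf protein, and complexes built on Bmi1 or Pcgf2 (Mel18) form the canonical group. A Cbx protein adds a chromodomain that binds the histone H3 methylation written by the second Polycomb complex, PRC2, and a Phc protein adds a domain that polymerises and compacts chromatin. In blood, Bmi1 is known for sustaining stem cell self-renewal through repression of *Cdkn2a*, and loss of Bmi1 or Pcgf2 in mice depletes early B cells. Variant complexes use other Pcgf proteins together with Rybp or Yaf2 and carry no Cbx protein.

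All 9 subunit mRNAs had an FPKM of at least 1 in both libraries. The lower limit of the interval was 0 in both libraries for *Cbx7* and the main *Pcgf2* transcript. It was also 0 in pro-B cells for *Cbx8* and *Ring1*. A part of RNA from the OP-9 cells in these low levels was not tested. *Rnf2* and *Bmi1* stood at the top in both libraries, above 30 FPKM, and *Cbx7* and *Pcgf2* at the bottom, below 3 FPKM. The raw FPKM of 6 of the 9 mRNAs differed by less than 1.5-fold between the libraries. With 1 added to each value, *Cbx8* was the one member past 2-fold, lower in pro-B cells, and in raw FPKM *Cbx7* was past it too. In RNA from bulk cultures, fewer cells that carry an mRNA and less of that mRNA per cell cannot be told apart. Of the 9 members, 0 were called higher and 1 was called lower, while among the 10528 genes with at least 1 FPKM in a library 12.2% were called higher and 19.1% lower. Over all 20250 genes these shares were 6.34% and 9.94%. Among genes with at least 1 FPKM in both libraries, as all 9 members had, they were 10.4% and 11.3%. Counts of 0 and 1 among 9 genes are too small to set the members apart from other genes. Their median log2 ratio was -0.08 and their median absolute log2 ratio 0.47, beside -0.14 and 0.58 for the expressed genes.

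**Figure D1:**
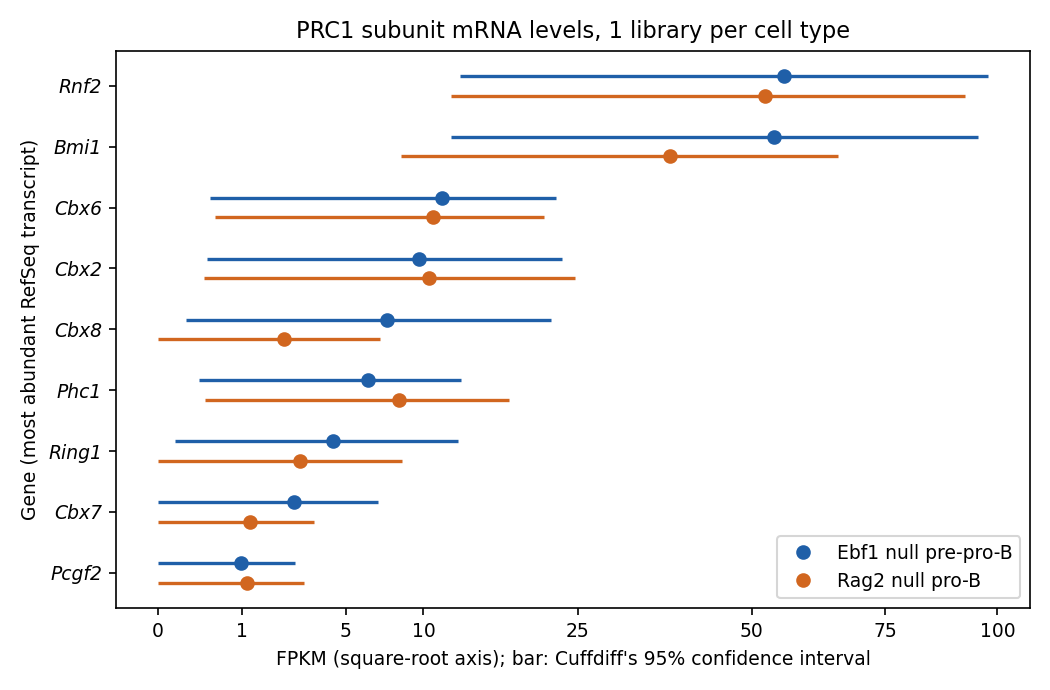
FPKM on a square-root axis of the most abundant RefSeq transcript of each PRC1 subunit in the *Ebf1* null pre-pro-B library (blue) and the *Rag2* null pro-B library (orange), with bars for Cuffdiff's 95% confidence interval. *Rnf2* and *Bmi1* lie highest in both libraries, the points of *Cbx8* lie at 7.44 and 2.24 FPKM, and the bars of the pair of libraries overlap for every gene.

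Promoter windows from RefSeq, from 250 bases before to 50 after each start site on GRCm38.p6, were matched by symbol for 8 of the 9 members, all but *Cbx2*. The members' windows held a median of 27 CpG dinucleotides, beside 21 over 10910 windows of expressed genes, with a range from 9 in *Phc1* to 37 in *Ring1*. The core of the Ebf1 motif, CCCNNGGG, read on both strands, was found in 2 of the 8 windows, those of *Cbx6* and *Ring1*, and in 17.7% of the windows of expressed genes. These stretches are shown because 1 of the libraries lacks functional *Ebf1*, with the motif letters in capitals, 5′ to 3′ along the gene. Coordinates are on GRCm38.p6, a newer build than mm9.
Cbx6 (chr15:79834389-79834418, minus strand): cctagcaaccgCCCCGGGGgagggggaggc
Ring1 (chr17:34024794-34024823, minus strand): gggatcctccgCCCTCGGGctctccacatg
Neither gene was past 2-fold between the libraries, and *Cbx8* had no such match in its window. In *Cbx6* a further match overlaps the one shown by all but 1 base. The E2F motif TTCCCGC, the E box CAGGTG and the Ets motif CCGGAAG were found in 0 of the 8 windows, beside 8.49%, 17.1% and 18.9% of those of expressed genes. A match is a run of letters and not a measured binding site, and no match says nothing about the factor.

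The catalytic subunits were measured most firmly through *Rnf2*. *Rnf2* (NM_011277, mm9 chr1:153316536-153347953, minus strand) had 55.5 FPKM in pre-pro-B cells, with an interval from 12.9 to 97.8, and 52.3 FPKM in pro-B cells, with an interval from 12.2 to 92.5. In log2 terms the difference was -0.08. *Rnf2* lay above 88.6% of the expressed genes in the pre-pro-B library and above 86.9% in pro-B cells, so its place among all mRNAs was nearly the same. The intervals, read at their extremes, would still allow a pro-B level between 0.125-fold and 7.14-fold of the pre-pro-B level.

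*Ring1*, the paralogous ligase (NM_009066, chr17:34157737-34161625, minus strand), had 4.34 FPKM in pre-pro-B cells, with an interval from 0.0389 to 12.8. In pro-B cells it had 2.86 FPKM, with an interval from 0 to 8.43, a log2 ratio of -0.47. *Rnf2* was thus 12.8-fold above *Ring1* at the pre-pro-B stage and 18.3-fold above it in pro-B cells. In both libraries the intervals of the ligase pair did not overlap. *Rnf2* supplied 92.7% of the ligase FPKM in the pre-pro-B library and 94.8% in pro-B cells.

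*Bmi1*, the Pcgf protein that stimulates the ligase in canonical PRC1 (NM_007552, chr2:18598645-18608256, plus strand), had 53.8 FPKM in pre-pro-B cells, with an interval from 12.2 to 95.4. In pro-B cells it had 37.3 FPKM, with an interval from 8.40 to 65.7. The level in pro-B cells was 1.44-fold lower, a log2 ratio of -0.52, well inside the overlap of the intervals. The *Rnf2* to *Bmi1* ratio was 1.03 at the pre-pro-B stage and 1.4 in pro-B cells. These ratios rest on point values, and the intervals of *Rnf2* and *Bmi1* overlapped each other in both libraries. A limit applies to *Bmi1* alone among the abundant members. A copy of its mRNA sequence without introns lies at chrX:146655263-146658154 and matches over 2942 aligned bases at 94.8% identity, so some reads could be shared with that copy.

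*Pcgf2*, the alternative Pcgf subunit of canonical PRC1 (chr11:97550137-97561811, minus strand), was the lowest member, at 1.01 FPKM in the pre-pro-B library and 1.12 FPKM in pro-B cells. Nearly all of it was transcript NM_001163308, with 0.969 FPKM and an interval from 0 to 2.67 in pre-pro-B cells. In pro-B cells that transcript had 1.12 FPKM, with an interval from 0 to 3.01. The lower limit of *Pcgf2* was thus 0 in each library, and its log2 ratio of 0.08 lay well within these intervals. *Bmi1* exceeded *Pcgf2* 53.2-fold at the pre-pro-B stage and 33.3-fold in pro-B cells, and the intervals of their main transcripts lay apart in both libraries. Of the FPKM of this pair, *Bmi1* held 98.2% in the pre-pro-B library and 97.1% in pro-B cells.

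The Pcgf proteins of variant PRC1 were set beside these after their values had been seen. *Bmi1* made up 50.1% of the summed FPKM of all Pcgf genes at the pre-pro-B stage and 45.2% in pro-B cells. *Pcgf3* held 20.7% and 14.2%, with 22.3 FPKM in the pre-pro-B library and 11.7 FPKM in pro-B cells. *Pcgf5* held 10.7% and 21.3%, with 11.5 and 17.5 FPKM. By point values *Bmi1* was therefore the leading Pcgf mRNA in both libraries, while the order of *Pcgf3* and *Pcgf5* was turned between them. The intervals of *Pcgf3* and of *Pcgf5* overlapped between the libraries. Within each library the intervals of *Bmi1*, *Pcgf3* and *Pcgf5* overlapped one another, so neither the lead nor the turned order was resolved. *Pcgf1* (9.07 and 5.08 FPKM) and *Pcgf6* (9.78 and 9.68 FPKM) held the remaining share apart from the 0.941% and 1.36% of *Pcgf2*.

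The Cbx subunits, which read histone methylation, showed the members' widest range of differences. *Cbx2* (NM_007623, chr11:118884276-118892584, plus strand) had 9.65 FPKM in pre-pro-B cells, with an interval from 0.338 to 23.2, and 10.4 FPKM in pro-B cells, with an interval from 0.306 to 24.7. Its log2 ratio was 0.10. *Cbx6* (NM_028763, chr15:79654326-79665118, minus strand) had 11.4 FPKM, with an interval from 0.379 to 22.5, and 10.7 FPKM, with an interval from 0.454 to 21.1, a log2 ratio of -0.08. The point values of both genes were thus close in the pair of libraries, but the intervals would allow a pro-B level from 0.0132-fold to 73.0-fold of the other for *Cbx2* and from 0.0201-fold to 55.7-fold for *Cbx6*. For *Cbx6* the deposited locus also holds *Nptxr*, listed at 0 in both, and the *Npcd* transcripts that join *Cbx6* to it, which summed to 0.413 and 0.242 FPKM. How reads were split between *Cbx6* and *Npcd* is uncertain, although *Npcd* was low in each library.

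*Cbx8* (NM_013926, chr11:118897619-118902283, minus strand) had 7.44 FPKM in pre-pro-B cells, with an interval from 0.113 to 22.0. In pro-B cells it had 2.24 FPKM, with an interval from 0 to 6.98. The pro-B level was 3.33-fold lower, and with 1 added to each value the log2 ratio was -1.38. It was the largest difference of any member, and the intervals still overlapped. The RefSeq model behind this value is 1393 bases long, whereas the longest GENCODE transcript of *Cbx8* has 3580 bases, of which 2372 are 3′ untranslated. Reads from that longer tail were not part of the *Cbx8* FPKM.

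*Cbx7* (NM_144811, chr15:79746237-79801549, minus strand), the paralog known for sustaining self-renewal of blood stem cells, had 2.63 FPKM in pre-pro-B cells, with an interval from 0 to 6.87. In pro-B cells it had 1.19 FPKM, with an interval from 0 to 3.44. The log2 ratio was -0.73 with 1 added to each value and -1.14 without, a raw level 2.20-fold lower in pro-B cells. *Cbx7* is so low that the added 1 decided whether it passed the 2-fold limit. Without a pseudocount 2 members, *Cbx7* and *Cbx8*, had a pro-B level lower by 2-fold or more. Of the 12076 genes above 0 in both libraries, 22.1% were lower by that rule. These genes include some below 1 FPKM, whereas all 9 members had at least 1 FPKM in both libraries.

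The relative make-up of the 4 Cbx members does not depend on how the libraries are scaled to each other. They summed to 31.1 FPKM in the pre-pro-B library and 24.6 FPKM in pro-B cells. *Cbx8* held 23.9% of this sum at the pre-pro-B stage and 9.09% in pro-B cells, and *Cbx7* held 8.44% and 4.85%. *Cbx6* held 36.7% and 43.7%, and *Cbx2* 31.0% and 42.4%. The order *Cbx6*, *Cbx2*, *Cbx8*, *Cbx7* was the same in both libraries, although none of the neighbours in it had intervals that lay apart. The *Cbx2* to *Cbx8* ratio was 1.30 at the pre-pro-B stage and 4.67 in pro-B cells, and the *Cbx6* to *Cbx7* ratio was 4.34 and 9.0.

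**Figure D2:**
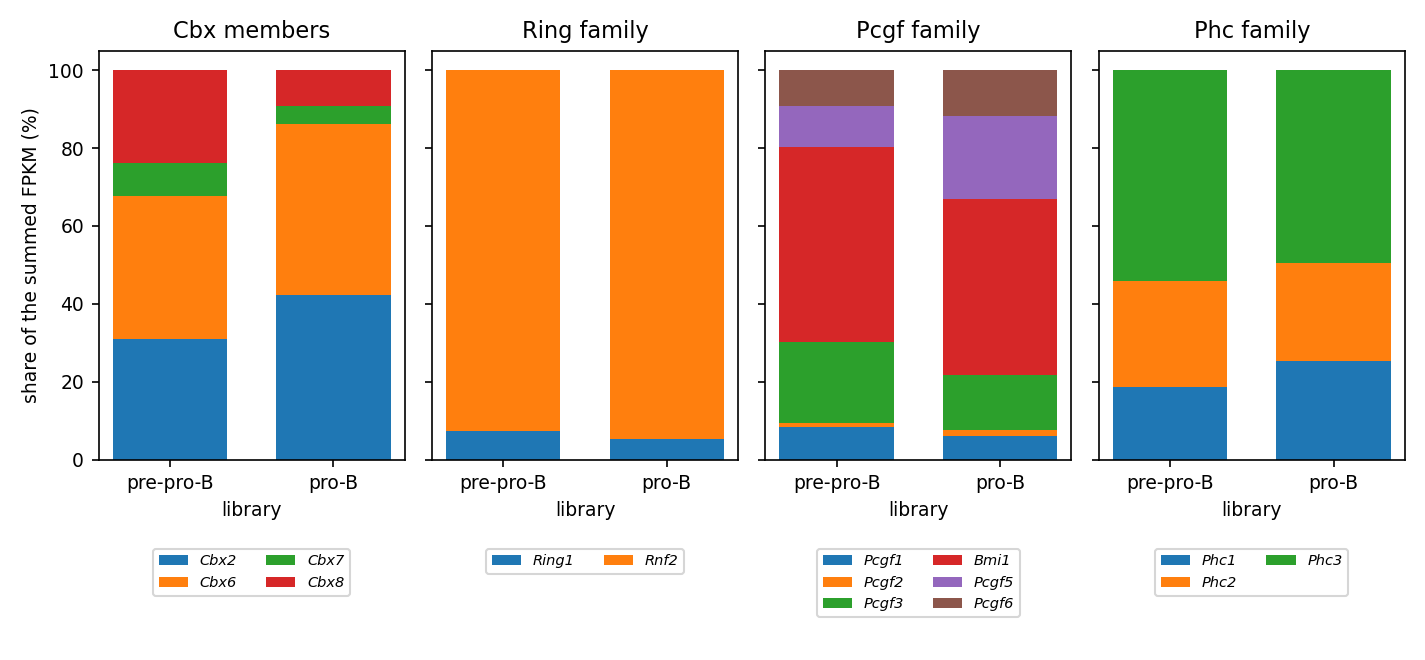
Share of the summed FPKM of each set of paralogs, in percent, held by each gene in the pre-pro-B library (left bar) and the pro-B library (right bar), for the 4 Cbx members and the Ring, Pcgf and Phc families. The *Cbx8* segment goes from 23.9% to 9.09% of the Cbx sum, while *Rnf2* fills over 90% of the Ring bar in both libraries.

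*Phc1*, the polyhomeotic subunit (chr6:122267749-122290579, minus strand), was the member with the largest positive difference, at 6.53 FPKM in the pre-pro-B library and 9.46 FPKM in pro-B cells. The level in pro-B cells was 1.45-fold higher, a log2 ratio of 0.47. Transcript NM_001042623 carried 95.5% of the gene's FPKM at the pre-pro-B stage and 86.8% in pro-B cells, with 6.24 FPKM (interval from 0.240 to 13.0) and 8.21 FPKM (interval from 0.309 to 17.5). The second transcript, NM_001271579, had 0.292 FPKM in pre-pro-B cells, 4.47% of the gene, and 1.17 FPKM in pro-B cells, 12.4% of the gene. The main *Phc1* transcript was the same in both cell types. Within the Phc family *Phc1* held 18.6% of the FPKM in the pre-pro-B library and 25.3% in pro-B cells. *Phc3* held 54.2% and 49.4%, and *Phc2* 27.2% and 25.3%. The main-transcript intervals of *Phc1*, *Phc2* and *Phc3* overlapped one another in each library, so their order was not resolved.

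Considered together, 3 members had a higher raw FPKM in pro-B cells (*Phc1*, *Pcgf2* and *Cbx2*) and 6 a lower one. Of the 13 transcripts, 12 were above 0 in a library, and 0 of the 13 had Cuffdiff intervals that lay apart between the libraries. Over all genes, intervals lay apart for 3.02% of the 18877 transcripts above 0 in a library, either way. The rows behind that share were not filtered for faulty intervals, and 1115 transcripts above 0 had an upper limit of 0. The lower limit was 0 for 6 of the 13 transcripts at the pre-pro-B stage and for 8 in pro-B cells, and each member's main transcript had an upper limit above its FPKM. A difference of the size seen for *Cbx8* or *Cbx7* was thus not resolved by these intervals.

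The order of levels from high to low in pre-pro-B cells was *Rnf2*, *Bmi1*, *Cbx6*, *Cbx2*, *Cbx8*, *Phc1*, *Ring1*, *Cbx7* and *Pcgf2*. In pro-B cells it was *Rnf2*, *Bmi1*, *Cbx6*, *Cbx2*, *Phc1*, *Ring1*, *Cbx8*, *Cbx7* and *Pcgf2*, so that *Cbx8* alone changed place against the others. No neighbours in either order had main-transcript intervals that lay apart. Among the 36 pairs of members, intervals lay apart for 5 pairs in the pre-pro-B library and 7 pairs in pro-B cells. Every such pair set *Rnf2* or *Bmi1* against *Ring1*, *Cbx7*, *Cbx8* or *Pcgf2*. The pairs of *Cbx8* with *Bmi1*, 16.7-fold, and with *Rnf2*, 23.4-fold, were apart in the pro-B library and overlapped in the pre-pro-B library.

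The other Polycomb genes were counted by the same 2-fold rule. In total 36 of 38 listed genes were measured, of which 4 were higher and 4 lower in pro-B cells, with a median log2 ratio of -0.02. Of the other canonical PRC1 subunits, 4 of 5 were measured, with 1 higher and 1 lower. *Scmh1*, a Phc-binding protein, had 3.81 FPKM at the pre-pro-B stage and 12.9 FPKM in pro-B cells, which gave a log2 ratio of 1.54. *Scml4*, a related protein, had 2.82 and 0.162 FPKM, a log2 ratio of -1.72. Each of these differences was larger in size than that of *Cbx8*, and for both genes the transcript intervals overlapped between the libraries.

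Of the variant PRC1 subunits, 14 of 15 were measured, with 1 higher and 2 lower, and their median log2 ratio was -0.25. *Yaf2*, which replaces the Cbx protein in variant complexes, had 2.46 FPKM in the pre-pro-B library and 9.26 FPKM in pro-B cells, which gave a log2 ratio of 1.57. Its paralog *Rybp* had 3.29 and 2.09 FPKM, so that *Yaf2* held 42.7% of the sum of this pair at the pre-pro-B stage and 81.5% in pro-B cells. The intervals of *Yaf2* and *Rybp* overlapped each other in each library. Those of *Yaf2*, *Rybp*, *E2f6* and *Fbrs* each overlapped between the libraries. *E2f6*, the DNA-binding partner of *Pcgf6* complexes, had 20.7 and 7.42 FPKM, a log2 ratio of -1.36, and *Fbrs*, a partner of *Pcgf3* and *Pcgf5* complexes, had 16 and 6.06 FPKM, a log2 ratio of -1.27. Of the 35 other Polycomb genes with at least 1 FPKM in a library, *E2f6* had the log2 ratio nearest to that of *Cbx8*, 0.0196 away over these 2 libraries.

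PRC2, which writes the methylation mark that Cbx proteins bind, held the genes with the widest differences of the Polycomb lists, although its median absolute log2 ratio of 0.36 was below the 0.47 of the PRC1 members. All 11 listed PRC2 genes were measured, and 2 were higher and 1 lower in pro-B cells, with a median log2 ratio of 0.10. *Ezh2*, the catalytic subunit, had 37.0 FPKM in the pre-pro-B library and 277 FPKM in pro-B cells, which gave a log2 ratio of 2.87. Its main transcript NM_007971 had 35.9 FPKM, with an interval from 3.21 to 68.7, and 255 FPKM, with an interval from 11.6 to 538. Even this 7.49-fold difference had overlapping intervals.

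The other PRC2 core subunits differed less than *Ezh2*. *Suz12* had 47.9 and 95.9 FPKM, a log2 ratio of 0.99 that lay just under the limit, *Eed* 43.3 and 52.9 FPKM, and *Ezh1*, the paralogous enzyme, 14.5 and 11.6 FPKM. *Phf19*, a chromatin-reading accessory subunit, had 0.512 and 12.4 FPKM, a log2 ratio of 3.15, and *Jarid2*, another accessory subunit, 24.6 and 10.0 FPKM, a log2 ratio of -1.22. For *Phf19* and *Jarid2* too, the transcript intervals overlapped between the libraries. *Ezh2* mRNA was at 0.666-fold of the *Rnf2* level at the pre-pro-B stage and at 5.29-fold of it in pro-B cells. By point values the writer of the mark and the ubiquitin ligase stood in opposite order in the pair of libraries, although the intervals of their main transcripts overlapped in each, so that neither order was resolved. All 7 genes of the H2A deubiquitinases and their partners, which remove the ubiquitin that PRC1 places, were measured, with 0 higher and 0 lower and a median log2 ratio of 0.16.

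**Figure D3:**
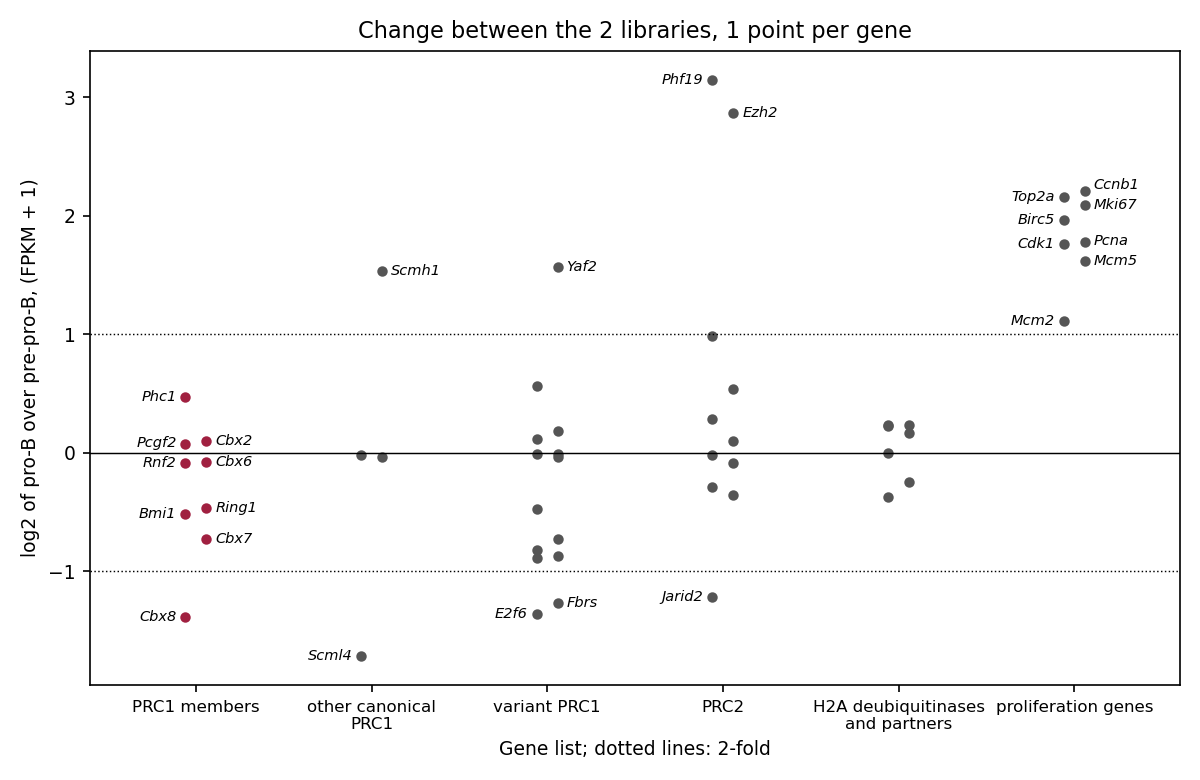
Log2 ratio of pro-B over pre-pro-B, with 1 added to each summed FPKM, for each gene (1 point) of the PRC1 members, of the other Polycomb lists and of 8 proliferation genes, with dotted lines at 2-fold. The members lie between -1.38 (*Cbx8*) and 0.47 (*Phc1*), whereas *Phf19* and *Ezh2* lie at 3.15 and 2.87 and the proliferation genes all lie above the upper line.

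mRNAs of proliferation, of B cell stage and of markers of other cell types differed between the libraries too. All 8 proliferation genes were called higher in pro-B cells, and their sum was 418 FPKM in the pre-pro-B and 1650 FPKM in the pro-B library. For each of these 8 genes the transcript intervals overlapped between the libraries, so these differences were not resolved either. All 8 B lineage markers were called higher, their sum going from 8.44 to 2907 FPKM, and all 3 progenitor markers were called lower, from a sum of 944 to 2.82 FPKM. Of 10 stromal markers 3 were called higher and 1 lower, with sums of 20.1 and 16.9 FPKM and *Dcn* listed at 0 in both. *Pdgfrb*, at 15.9 and 0.377 FPKM, made up most of the pre-pro-B sum, and the other 9 stromal markers summed to 4.21 FPKM at the pre-pro-B stage and 16.5 FPKM in pro-B cells, 8 of them with a higher value there. Of 5 myeloid markers 3 were called lower, with sums of 61.0 and 6.52 FPKM and *Elane* listed at 0 in both. Of 4 genes of fetal origin, *Lin28b*, *Igf2bp1* and *Igf2bp2* were below 1 FPKM in both libraries, too low to be called by this rule. The remaining gene, *Hmga2*, was called lower, at 44.0 and 0.328 FPKM. The part of any of these in the *Cbx8* or *Ezh2* difference was not tested. *Ebf1* itself had 64.0 FPKM in its own null library and 273 in the other, and *Rag2* had 22.9 FPKM in its null library and 34.5 in the other. The deleted exons are not given in the sources used here, so these values over whole transcripts are no check of the labels.

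Genes known as Polycomb targets were read in the same way, and 3 of 8 were called higher and 3 lower in pro-B cells. *Cdkn2a*, the cell cycle inhibitor locus that Bmi1 represses, had 0.308 FPKM in the pre-pro-B library and 3.60 FPKM in pro-B cells. These sums came from different transcripts. The one that held 99.9% of the *Cdkn2a* sum at the pre-pro-B stage held 14.3% in pro-B cells. For both *Cdkn2a* transcripts the intervals overlapped between the libraries. *Pax5*, the B lineage commitment factor, had 1.13 and 239 FPKM, and *Ebf1*, the targeted gene, is the third of those that were higher. The lower genes were all Hox genes, *Hoxa7* with 16.6 and 0.317 FPKM, *Hoxa9* with 39.9 and 0.0655 FPKM and *Hoxa10* with 10.0 and 0.0749 FPKM. For *Hoxa9* and *Pax5* the intervals lay apart between the libraries. No relation between these genes and the levels of the Polycomb subunits was tested.

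*Cbx2* and *Cbx8* share a stretch of chromosome 11, with 7.17 kb between their RefSeq rows. Their log2 ratios were 0.10 for *Cbx2* and -1.38 for *Cbx8*, so by point values *Cbx2* did not share the lower level of *Cbx8* beside it. The intervals of each gene overlapped between the libraries, so this contrast was not resolved. *Cbx6* and *Cbx7* are likewise linked, 81.5 kb apart on chromosome 15, with *Apobec3*, a cytidine deaminase gene 7.38 kb from *Cbx7*, at 96.7 and 27.4 FPKM.

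In total 39 different genes outside the list lay within 100 kb of a member, and 11 of them were called lower and 0 higher in pro-B cells, beside the 9.94% lower and 6.34% higher of all genes and the 19.1% and 12.2% of expressed genes. *Ring1* lies in the major histocompatibility region, and 7 of its 15 neighbours were called lower. These included the class II genes *H2-DMa*, with 19.7 and 0.224 FPKM, and *H2-Oa*, with 18.5 and 4.04 FPKM, as well as *H2-Ke6*, 1.35 kb from *Ring1*, with 16.6 and 5.90 FPKM. The other neighbours called lower near *Ring1* were *B3galt4*, *Col11a2*, *Rgl2* and *Brd2*. *Sun2* near *Cbx6* (56.2 and 25.7 FPKM), *Pdgfb* near *Cbx7* (1.48 FPKM and listed at 0) and *Lasp1* near *Pcgf2* (41.0 and 12.0 FPKM) were also called lower. For *Bmi1*, *Phc1* and *Rnf2*, 0 neighbours were called.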

How the data were processed

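The authors trimmed strand-specific single-end reads of rRNA-depleted total RNA, aligned them to mm9 with TopHat (1.5 in the submitters' notes) and deposited FPKM per RefSeq transcript with 95% interval limits, also in FPKM, from Cuffdiff 2.1.1, with multi-read and bias correction. Small RNAs were depleted. Read counts were not analysed here. A further deposited table of the authors' own comparisons (fold changes, p-values and q-values, plus 2 unlabelled per-sample columns) was not used. Of 26968 protein-coding rows, 26555 were given a symbol through RefSeq. All 13 member rows had status OK.

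FPKM were summed per gene, and log2((pro-B + 1)/(pre-pro-B + 1)) was called at 2-fold. No test was run, and no fit was made, because each group has 1 library. Coordinates came from GENCODE vM1 on NCBIM37 (mm9), copies from minimap2 2.31-r1302 and promoter windows from RefSeq on GRCm38.p6. Python 3.11.15, numpy 2.4.6, pandas 2.3.3 and matplotlib 3.10.9 were used.

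The members and lists were chosen with earlier results of these data known. Text names all members, other Polycomb genes past 2-fold, family paralogs, PRC2 core genes, the gene with the nearest log2 ratio to a called member, neighbours within 100 kb of *Cbx2* and *Cbx8*, called neighbours of the rest, and the targeted genes. An item the lists first held is not reported here and was left out of list, share and neighbour counts. *Rybp*, the Pcgf comparison and single marker and target genes were named after their values were seen. Pseudocount, scaling, transcript choice, filters and fold limit were varied.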

Additional observations from a re-analysis of the deposited data

How the results depend on the processing

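Across 11 alternative settings, 154 of 170 recomputed values were unchanged by the rule set for them. For a log2 ratio the rule was that its sign and its 2-fold call were kept. For counts, percentages and shares it was a value within 1.5 times of the reported one. All member rows had status OK and none was a repeated accession, so the filters on these could not move a member's value. The transcript choice could not move the log2 ratio of the 7 members with 1 transcript. The filters at 1 FPKM could not move the member counts, because all 9 members passed them. The 154 unchanged values thus include values that could not change. *Cbx8* alone was called lower among the members in the reported version, and with a pseudocount of 0.1 or 0.01, or a fold limit of 1.5, 2 members were called lower, and with a fold limit of 3 there were 0. *Cbx7* passed 2-fold with a pseudocount of 0.1 (log2 ratio -1.08) and 0.01 (-1.13). TPM rescaling shifted every raw log2 ratio by -0.12 and median-ratio rescaling by 0.11, which turned the sign of *Cbx2* (-0.00824 under TPM), *Cbx6* (0.025 under median-ratio) and *Rnf2* (0.0281 under median-ratio), none of them called. The share of genes called higher was 10.3% with a pseudocount of 0.1 and 13.9% with 0.01. It was 12.2% with at least 1 FPKM in a library and 10.4% with at least 1 FPKM in both. In the same order, the share called lower was 15.4%, 19.7%, 19.1% and 11.3%. The 66 share values recomputed with another transcript choice, a status filter or no repeated accessions stayed within 1.5 times. The status filter and the removal of repeated accessions took out no row of these families, so they could not move a share. The transcript choice could move only the Phc shares and those of *Bmi1* and *Pcgf2*. No paired analysis was possible because the result comes from no test and each group has 1 library, and leaving out a replicate could not be run for the same reason. The depth of each FPKM is known only through Cuffdiff's intervals, which overlapped for every member transcript.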
